A study of Homo sapiens with 24 samples.

Results

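SLC25A51, also called MCART1, was overexpressed in cells exposed to MPP+, and its transcriptome was compared with that of the overexpression control under the same exposure. The comparison took 6 of the 24 libraries of the study: 3 labelled oeMCART1 and 3 labelled oeNC, each with MPP+ at 0.5 mM for 24 h. It covered the 13885 genes that reached 1 TPM, a measure of transcript abundance corrected for transcript length and library total, in at least 3 of these 6 libraries. The full design crosses MPP+ with 2 arms, overexpression (oeMCART1 and its control oeNC) and knockdown by a hairpin (shMCART1 and its control shScramble), in 8 groups of 3 libraries. All are labelled SH-SY5Y, a human neuroblastoma line, with bone marrow as the tissue, and all come from polyadenylated RNA. The sources used here give neither the overexpression vector nor its promoter, nor whether the cells are a clone or a pool. No label says that replicates were separate cultures, so each p-value measures the spread between the deposited samples, which may be technical.

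SLC25A51 sits in the inner membrane of mitochondria and imports NAD+ from the cytosol into the matrix. There NAD+ is reduced to NADH by the tricarboxylic acid cycle and handed to complex I, the first enzyme of the respiratory chain. MPP+, the active metabolite of the neurotoxin MPTP, accumulates in mitochondria and blocks complex I, so that NADH is no longer oxidised there and ATP supply falls; it is widely used to model Parkinson disease in dopaminergic cells.

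The label of the cell line was checked against its defining markers before the comparison. Of 12 neuroblastoma markers 5 reached 1 TPM in any of the 6 libraries and 0 reached 10 TPM. Tyrosine hydroxylase (TH), the first enzyme of dopamine synthesis, did not exceed 0.04 TPM, and GATA3 stood at 4.78 TPM with oeMCART1 and 4.61 TPM with oeNC. PHOX2A, DBH, ELAVL4 and ALK had no row in the treated table and did not exceed 0.09 TPM in any untreated library. The epithelial keratins KRT8 (147 against 158 TPM) and KRT18 (102 against 135 TPM) were the only 2 of 8 kidney epithelial markers to reach 10 TPM, and 4 of the 8 reached 1 TPM. The other members stood low, with EPCAM and CDH1 at up to 1.93 and 2.41 TPM, and PAX2, PAX8 and LHX1 at up to 0.82, 0.05 and 0.51 TPM. The growth protocol names HEK293T cells as well. The neuroblastoma markers therefore go against the label, and the libraries are called here by their group names. The summed level of the 12 neuroblastoma markers ran from 15.4 to 16.6 TPM with oeMCART1 and from 11.3 to 13.2 TPM with oeNC. The sum of the kidney epithelial markers ran from 241 to 269 TPM and from 288 to 305 TPM, with KRT19 at or under 0.27 TPM. That of 8 mesenchymal and Schwann-like markers ran from 12.01 to 17.9 and from 18.9 to 25.3 TPM, with S100B at 0 TPM in all 6. That of 8 blood markers ran from 9.60 to 15.7 and from 20.8 to 28.1 TPM, with CD3E at 0 TPM in all 6. The part of these markers in the results was not tested, and in bulk RNA fewer cells of a type and less RNA per cell cannot be told apart.

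The targeted gene matched the labels in every library. SLC25A51 (ENSG00000122696, GRCh38 chr9:37879400-37904353, minus strand) stood at 1008, 931 and 869.9 TPM in the oeMCART1 libraries and at 7.87, 8.15 and 9.44 TPM in the oeNC libraries. The means were 936 ± 69.0 and 8.49 ± 0.837 TPM (SD, n = 3 each), a ratio of 110. The log2 change was 6.63 ± 0.09 (SE) with an adjusted p of 4.37e-13 in limma, and a two-sided exact permutation test of the 6 TPM values returned p = 0.1, below which no split of 3 against 3 can go. Without MPP+ the ratio was 21.6, from 683 ± 12.3 against 31.6 ± 3.48 TPM in a table of its own. Gene totals do not separate the transcript of the vector from that of the chromosome, and the near-identical gene SLC25A52 was not analysed here.

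**Figure D1:**
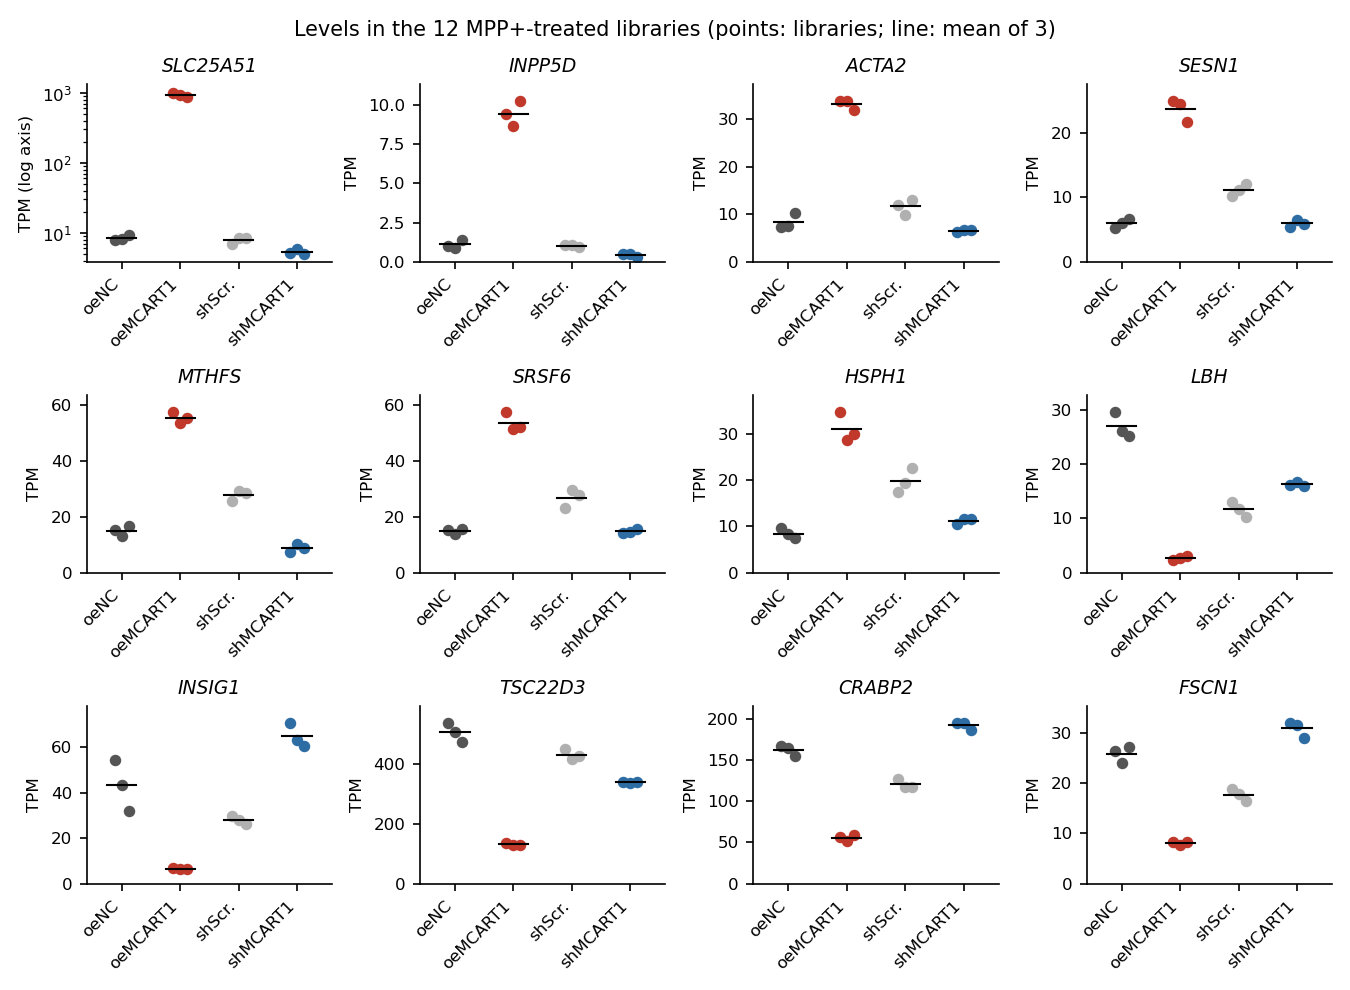
TPM of SLC25A51 and of 11 of the named genes with large changes (y axis; log scale for SLC25A51 only) in the 12 MPP+-treated libraries, by group (x axis); points are libraries and lines are means of 3. The genes with large changes were chosen for oeMCART1 points apart from the oeNC points; shScramble lies between these groups in several panels, as for SESN1 (10.1 to 12.1 TPM) and LBH (10.2 to 13.1 TPM).

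Of the 13885 genes tested, 8977 (64.7%) were called at an adjusted p under 0.05, 6899 of them higher (49.7%) and 2078 lower (15.0%) with oeMCART1. The median log2 change over all genes was 0.27, and every value below is to be read against that shift. Scaling the libraries by median of ratios moved the median to -0.00, with 3980 genes higher (28.7%) and 4247 lower (30.6%), and quantile normalization gave 4176 higher (30.1%) and 3865 lower (27.8%). The 6 values did not overlap between the groups for 7048 genes in the higher (50.8%) and 2229 in the lower direction (16.1%). Removing a trend with transcript GC content left 6941 higher and 1194 lower of 13122 genes (52.9% and 9.10%); across genes, GC content and log2 change had a Spearman correlation of -0.61, a description over genes that share their libraries.

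The control group itself stood apart from the other treated control. Between oeNC and shScramble, both with MPP+, 7089 genes were called (51.1%), 777 higher (5.60%) and 6312 lower (45.5%) in oeNC. Across genes, GC content and the log2 change of oeNC against shScramble had a Spearman correlation of 0.62. The oeNC libraries had 13197 to 13412 genes at 1 TPM or more, against 13884 to 14020 in oeMCART1 and 14046 to 14306 in shScramble. Messages of cytosolic ribosomal proteins took 46.4% ± 0.310 of all TPM in oeNC, 40.4% ± 0.472 in oeMCART1 and 42.9% ± 0.737 in shScramble (SD, n = 3 each). With shScramble in place of oeNC as the control, an alternative added after the data had been seen, 3612 genes were called (26.0%), 1777 higher (12.8%) and 1835 lower (13.2%). Of the 122 named genes that were called against oeNC, 97 were called in the same direction against shScramble, 21 had the same direction without a call and 4 had the opposite one. Values against shScramble are given below for many of the results; what sets the 2 controls apart was not tested.

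Among the 12 genes with the largest rise, INPP5D, an inositol phosphatase of signalling in blood cells, was read at 9.41, 8.67 and 10.3 TPM in the oeMCART1 libraries and at 1.03, 0.900 and 1.37 TPM in the oeNC libraries. Its log2 change was 2.32 ± 0.12 (adjusted p = 1.13e-07), and shScramble lay at 1.06, 1.05 and 0.950 TPM, level with oeNC. ACTA2, the smooth muscle actin, rose from 7.29, 7.53 and 10.2 TPM to 33.9, 33.7 and 32.0 TPM (log2 change 1.88 ± 0.12, adjusted p = 4.00e-07), with shScramble at 11.9, 9.86 and 13.1 TPM. Its annotated 5′ end overlaps that of the p53 target FAS on the opposite strand, and FAS (chosen after its value was seen) rose by 1.49; reads of overlapping genes may not be separated, as the strand setting of the counting is not given. SESN1, a stress-induced sestrin that restrains mTORC1, rose from 5.19, 6.01 and 6.69 TPM to 25.1, 24.5 and 21.6 TPM (log2 change 1.83 ± 0.10, adjusted p = 1.93e-07), with shScramble at 10.1, 11.1 and 12.1 TPM. MTHFS, an enzyme of folate salvage, rose from 15.3, 13.1 and 16.9 to 57.8, 53.8 and 55.4 TPM (log2 change 1.82), and shScramble held 25.6, 29.5 and 28.6 TPM, between the groups. HSPH1, a cytosolic chaperone that acts with HSP70, stood at 34.8, 28.6 and 29.8 against 9.58, 8.27 and 7.43 TPM (log2 change 1.77), with shScramble at 17.4, 19.3 and 22.7 TPM. That the groups do not overlap was a condition for naming these genes.

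The other members of these 12 were SLC25A51, FAM13B, SH3BGR, DLEU2, EXOG, SRSF6 and RPS27P6. FAM13B rose by 1.83 and SH3BGR by 1.76 on the log2 scale, the latter without a call against shScramble (0.73, adjusted p = 0.0864). EXOG, a mitochondrial nuclease, was read at 17.3, 14.2 and 34.8 TPM with oeMCART1 and 5.47, 4.94 and 5.49 TPM with oeNC, so that 1 library stood far above the other two of its group; the log2 change was 1.78 with it and 1.41 without it. DLEU2, a long RNA that hosts microRNAs and lies antisense to TRIM13, rose by 1.82 and is uncertain for the reason given for ACTA2. RPS27P6 is a pseudogene whose reads may belong to its parent gene: it was listed at 6.83, 13.8 and 9.30 TPM against 0, 0 and 6.20 TPM (adjusted p = 0.0391), was not called when any of 5 of the 6 libraries was left out (adjusted p from 0.0558 to 0.131), and changed by -0.25 against shScramble.

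The genes with the largest fall included a sensor of the sterol pathway. LBH, a regulator of transcription in development, was at 2.40, 2.79 and 3.13 TPM in the oeMCART1 libraries and at 29.7, 26.1 and 25.2 TPM in the oeNC libraries, a log2 change of -2.89 ± 0.10 (adjusted p = 6.25e-09); shScramble lay between, at 13.1, 11.7 and 10.2 TPM. INSIG1, the endoplasmic reticulum protein that holds back the sterol regulator SREBP, was at 7.0, 6.40 and 6.49 against 54.2, 43.5 and 31.8 TPM, a log2 change of -2.50 ± 0.14 (adjusted p = 2.34e-07). The oeNC libraries were spread for INSIG1, yet the lowest of them lay well above the highest oeMCART1 library. TSC22D3, a glucocorticoid-induced leucine zipper protein, was at 138, 129.6 and 130.3 against 538, 507 and 475 TPM (log2 change -1.93 ± 0.05, adjusted p = 2.06e-10), with shScramble at 451, 418 and 426 TPM.

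CRABP2, which carries retinoic acid to the nucleus, fell from 167, 164 and 154 to 56.8, 52.1 and 59.1 TPM (log2 change -1.52), and FSCN1, which bundles actin, fell from 26.3, 24.1 and 27.1 to 8.39, 7.71 and 8.28 TPM (log2 change -1.56). COL1A1, a chain of type I collagen, fell by 1.73 on the log2 scale and the membrane protein gene PLPPR3 by 1.64. The globin gene HBQ1 fell from 13.6, 16.6 and 17.9 to 3.65, 6.07 and 5.47 TPM. ANKRD37, a target of HIF-1, was spread within oeNC, at 3.80, 9.29 and 20.4 TPM against 2.78, 3.49 and 1.29 TPM with oeMCART1. Its log2 change of -1.59 became -0.17 (adjusted p = 0.807) against shScramble, and -1.05 without oeNC replicate 3. Also among the 12 were RPS27P3 and RPS26P6, which are pseudogenes of ribosomal proteins and are uncertain; RPS27P3 was listed at 0 TPM in all oeMCART1 libraries. Neither was called against shScramble (adjusted p = 0.0629 and 0.437).

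Mitochondrial DNA encodes 13 proteins of the respiratory chain and the ATP synthase, and its genes are transcribed as long precursors that are then cut. Their mRNAs together took 0.657 to 0.772% of TPM in the oeMCART1 libraries and 0.395 to 0.456% in the oeNC libraries. The means were 0.724% ± 0.0599 and 0.421% ± 0.0315 (SD, n = 3 each), a ratio of 1.72, and the groups did not overlap (two-sided exact permutation p = 0.1, the smallest possible). The 13 mRNAs summed to 6569 to 7722 TPM with oeMCART1 and 3949 to 4557 TPM with oeNC. MT-ATP8 alone had means of 3127 and 1186 TPM, so the ratio rests largely on this mRNA. The share of all 13 was 0.285% ± 0.0236 in shScramble and 0.418% ± 0.0162 in shMCART1. Without MPP+ the order was the opposite, 4.44% ± 0.508 with oeMCART1 and 8.70% ± 1.09 with oeNC; the untreated values come from a separately made table, so only the order within each table is compared.

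The 13 mRNAs did not move alike. MT-ATP6, a subunit of the ATP synthase, was at 499.9, 449 and 535 TPM with oeMCART1 and 177, 151 and 188 TPM with oeNC, a log2 change of 1.52 ± 0.08 (adjusted p = 1.63e-07). MT-ATP8, whose reading frame overlaps that of MT-ATP6, was at 3548, 2747 and 3086 against 1116, 1185 and 1256 TPM (1.39 ± 0.11, adjusted p = 1.26e-06). MT-ND4, a subunit of complex I, was at 185, 169 and 196 against 102, 87.5 and 94.2 TPM (0.95 ± 0.07, adjusted p = 1.03e-06), and MT-ND4L, which overlaps it, rose by 0.95 as well. The 2 overlapping pairs are uncertain as separate measurements. MT-CO3 rose by 0.56, MT-ND5 by 0.54, MT-CO2 by 0.47, MT-CO1 by 0.38 and MT-CYB by 0.37; the last 4 were not called under median-of-ratios scaling.

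Of the 13 mRNAs, those encoded first after the heavy-strand promoters went the other way. MT-ND1 was at 219, 208 and 235 TPM with oeMCART1 and 282, 239 and 291 TPM with oeNC, a log2 change of -0.29 ± 0.09 (adjusted p = 0.0135), which was not called without oeMCART1 replicate 2 (-0.25, adjusted p = 0.0531) or oeNC replicate 3 (-0.23, adjusted p = 0.0569). MT-ND2 was at 300.2, 275 and 302 against 394, 358 and 414 TPM (-0.41 ± 0.08, adjusted p = 0.000703). Both signs turned against shScramble, where MT-ND1 was 0.56 and MT-ND2 0.18. MT-ND3 (0.01, adjusted p = 0.944) and MT-ND6, whose mRNA comes from the light-strand promoter (0.19, adjusted p = 0.349), were not called, and the sign of both turned under median-of-ratios scaling (-0.32 and -0.14). Of the 13, 9 rose and 2 fell as deposited, 5 rose and 3 fell under median-of-ratios scaling, and 11 rose and 0 fell against shScramble. Without MPP+ 0 rose and 13 fell, where 15.5% of all genes fell, with a list median of -0.95, and the difference between the treated and the untreated effect was called for all 13 (median 1.33). In that test 2786 of 13612 genes were called (20.5%), 14.5% with a higher and 5.94% with a lower treated effect.

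**Figure D2:**
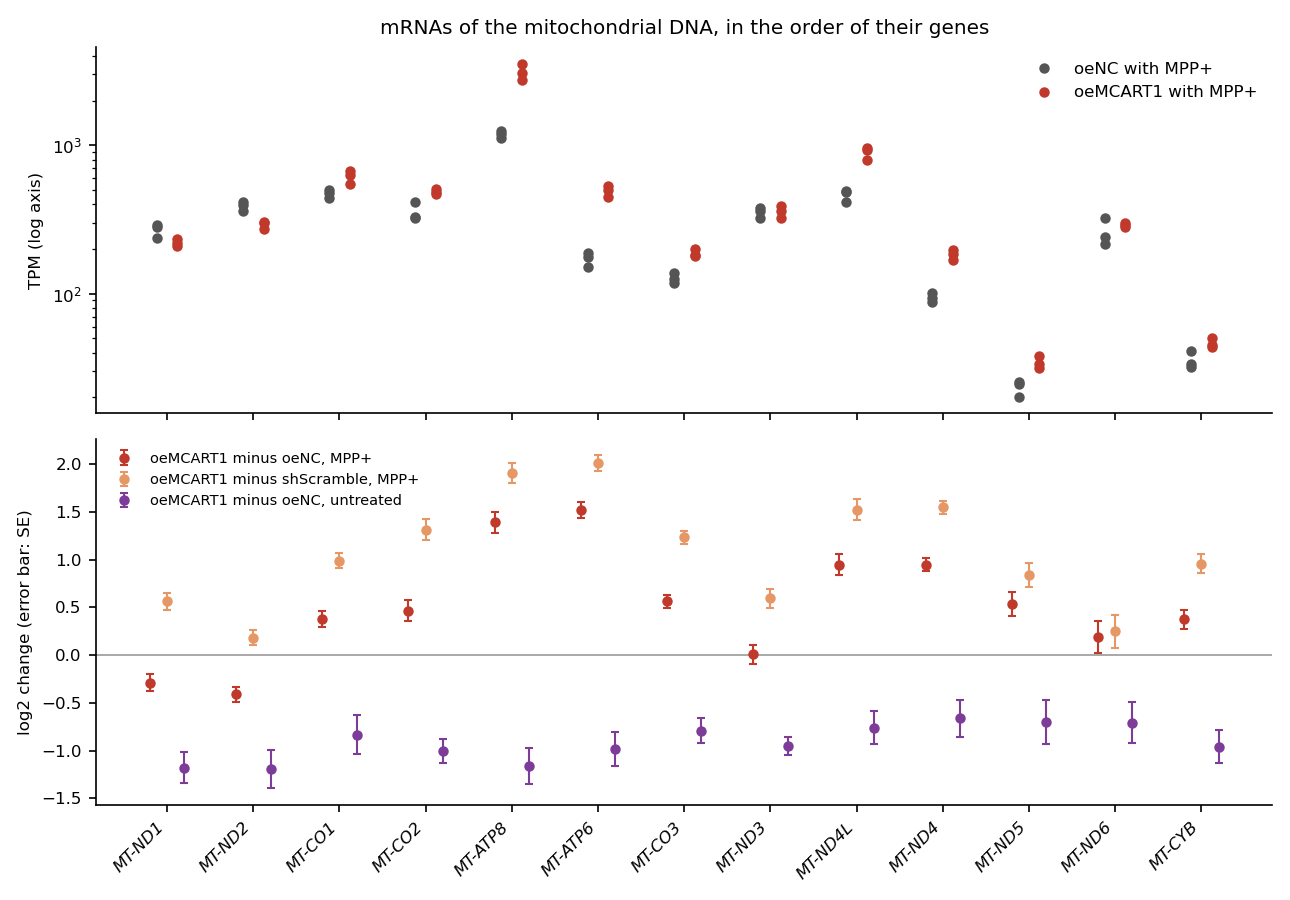
Top, TPM (log axis) of the 13 mitochondrial mRNAs in the 3 oeNC and 3 oeMCART1 libraries with MPP+, in the order of their genes; bottom, log2 change (error bars, SE) of oeMCART1 against oeNC with MPP+, against shScramble with MPP+, and against oeNC without MPP+. With MPP+ the change against oeNC runs from -0.41 for MT-ND2 to 1.52 for MT-ATP6, and without MPP+ every point lies below 0.

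Factors that maintain and transcribe mitochondrial DNA, listed together with factors that process or stabilise its RNA, were mostly higher as 1 list. Of 31 measured, 23 rose and 4 fell (median 0.55, against 0.27 for all genes), and 14 rose and 6 fell under median-of-ratios scaling (median 0.23). TFAM, which packages mitochondrial DNA and starts its transcription, was at 18.1, 17.3 and 15.0 against 5.45, 6.16 and 5.37 TPM (log2 change 1.42 ± 0.10, adjusted p = 7.48e-07), with shScramble at 9.96, 9.72 and 10.1 TPM. MGME1, a nuclease of mitochondrial DNA replication, rose by 1.22 and LRPPRC, which stabilises mitochondrial mRNAs, by 1.17; the latter was not called against shScramble (0.23, adjusted p = 0.166). SSBP1, the single-strand binding protein, rose by 0.51 and lost its call once the GC trend was removed (adjusted p = 0.0594). POLRMT, the mitochondrial RNA polymerase, went the other way, with a log2 change of -0.71 (adjusted p = 0.000343; chosen after its value was seen). Against shScramble 6 of the 31 rose and 1 fell, with a median of 0.19.

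The subunits of the respiratory chain that are encoded in the nucleus had medians below that of all genes against oeNC. Among the 37 subunits of complex I that the nucleus encodes, 20 rose and 3 fell as deposited (median 0.20). Under median-of-ratios scaling 7 rose and 15 fell (median -0.13). The sign of the list median thus depended on the scale, while it lay below the median of all genes on both (0.27 and -0.00). Against shScramble 15 rose and 0 fell (median 0.13, and 0.03 for all genes). The members with the smallest p were NDUFS4, NDUFC2, NDUFC1 and NDUFB2. NDUFC2 was at 316, 297 and 295 TPM with oeMCART1 and 158, 190.1 and 185 TPM with oeNC (log2 change 0.77, adjusted p = 4.43e-06), and the others rose by 0.64, 0.55 and 0.64. Of 17 assembly factors of complex I, 12 rose and 1 fell (median 0.44), with 6 and 5 under the other scaling (median 0.12); TMEM126B rose by 1.13 and NDUFAF8 by 0.97. For the other complexes, II to V, 17 of 41 nuclear-encoded subunits rose and 9 fell (median 0.06), but 5 rose and 24 fell under median-of-ratios scaling (median -0.27), and 9 rose and 0 fell against shScramble (0.08). The mitochondrial ribosomal proteins (53 of 78 rose, 7 fell, median 0.30) and import factors (25 of 36 rose, 2 fell, median 0.29) lay 0.02 above the median of all genes, and both medians were -0.03 after scaling.

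Targets of p53, the transcription factor that answers DNA damage and other stress with growth arrest and death genes, had together with the SR splicing factors the highest median of the 43 gene lists. Of 29 p53 genes measured, 23 rose and 0 fell (median 1.04, 0.77 above all genes). The counts were 20 and 3 under median-of-ratios scaling (median 0.72), 26 and 0 with the GC trend removed (0.93), and 19 and 0 against shScramble (0.78). TRIAP1, a p53-induced inhibitor of apoptosis in mitochondria, was at 92.1, 94.2 and 92.7 TPM with oeMCART1 and 37.6, 42.6 and 41.1 TPM with oeNC (log2 change 1.18 ± 0.06, adjusted p = 1.13e-07), with shScramble at 51.1, 53.9 and 55.2 TPM. TNFRSF10B, a death receptor for TRAIL, was at 82.5, 79.2 and 81.6 against 42.9, 36.3 and 37.7 TPM (1.04 ± 0.06, adjusted p = 2.90e-07). AEN, an apoptosis-enhancing nuclease, was at 90.9, 91.3 and 92.8 against 62.5, 61.4 and 62.3 TPM (0.55 ± 0.04, adjusted p = 8.49e-07). These 3 were named for having the smallest p of the list.

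The other p53 genes named here were chosen after their values were seen; the first pair are standard readouts of the pathway. CDKN1A, the cell-cycle inhibitor p21, was at 55.1, 53.9 and 60.7 TPM with oeMCART1 and 22.7, 24.6 and 31.1 TPM with oeNC (1.09 ± 0.10, adjusted p = 2.43e-06). MDM2, the ubiquitin ligase that degrades p53, was at 27.4, 26.7 and 25.4 against 7.91, 6.84 and 9.82 TPM (1.59 ± 0.13, adjusted p = 1.63e-06). The p53 targets that were not called included BBC3 (-0.12), PMAIP1 (0.22) and GADD45A (-0.16). In the BCL2 family 7 of 17 rose and 2 fell (median 0.22), against 3 and 6 under median-of-ratios scaling (-0.11), and BAX, a p53 target that opens the outer mitochondrial membrane, rose by 0.91.

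**Figure D3:**
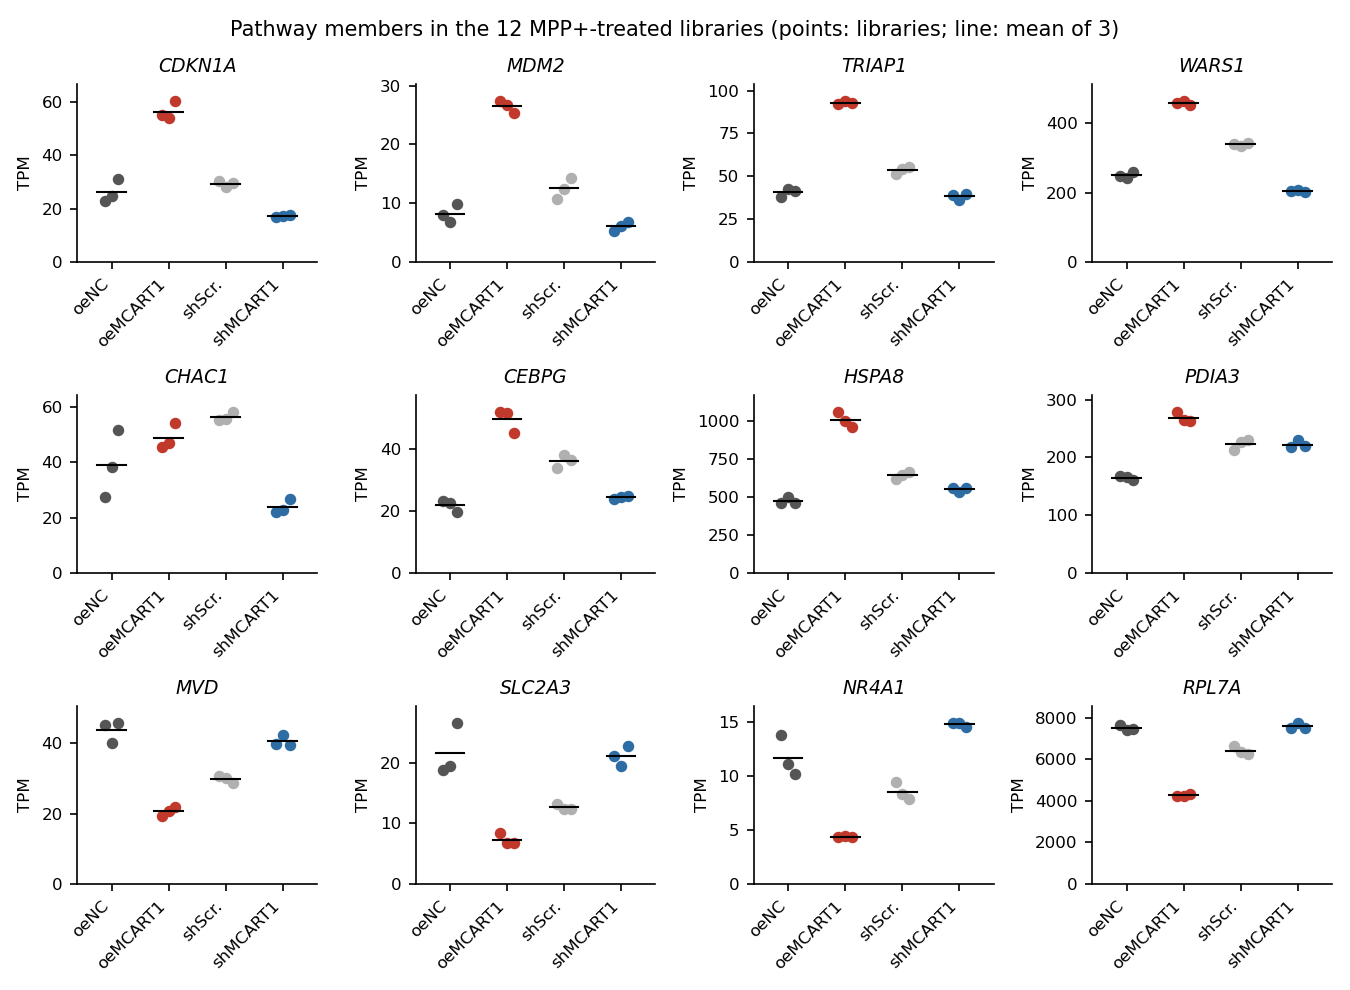
TPM (y axis, from 0) of 12 members of the gene lists in the 12 MPP+-treated libraries, by group (x axis); points are libraries and lines are means of 3. The oeMCART1 points lie above the oeNC points for 7 of the upper 8 genes, overlap them for CHAC1, and lie below them for MVD, SLC2A3, NR4A1 and RPL7A.

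The integrated stress response, in which phosphorylated eIF2 slows translation while the factor ATF4 switches on amino acid genes, was split. Of 42 targets 29 rose and 8 fell (median 0.51). Under median-of-ratios scaling 20 rose and 13 fell (median 0.18), with the GC trend removed 32 rose and 2 fell (0.68), and against shScramble 18 rose and 2 fell (0.20). WARS1, the cytosolic tryptophanyl-tRNA synthetase, was at 459, 466 and 454 TPM with oeMCART1 and 247, 243 and 258 TPM with oeNC (0.88 ± 0.03, adjusted p = 9.02e-09), with shScramble at 339, 336 and 343 TPM. SLC7A11, the cystine importer that feeds glutathione synthesis, was at 6.58, 5.68 and 5.22 against 1.70, 1.54 and 1.65 TPM (1.37 ± 0.11, adjusted p = 1.39e-06). PSAT1, an enzyme of serine synthesis, rose by 0.89 and was not called against shScramble (0.18, adjusted p = 0.0777). The values of 2 regulators of the pathway were negative. ATF4 was at 799, 811 and 779 against 999, 925 and 905 TPM (-0.24 ± 0.04, adjusted p = 0.00012), and DDIT3, which encodes CHOP, changed by -0.13 (adjusted p = 0.0736). DDIT4, an inhibitor of mTORC1, fell from 281, 283 and 357 to 165, 165 and 186 TPM (-0.82). ATF4 and DDIT3 were chosen after their values were seen.

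Many targets of ATF4 carry a composite site for C/EBP and ATF factors in their promoters, with the core TGATGNAA, in which N is any base. RefSeq promoters matched 35 of the 42 genes. The core, searched on both strands in the 250 bases before the start and overlapping no other motif searched, was found in 9 of their 58 promoters (15.5%) and in 1104 of all 35116 promoters (3.14%). With 50 bases after the start added, the counts were 13 (22.4%) and 1270 (3.62%). The list was made of known targets of this response, so a higher share follows from how it was chosen and is no result of these data. In the 250 bases the core was present for 8 genes, ASNS, ATF3, CEBPG, CHAC1, FGF21, JDP2, MTHFD1L and SLC1A5. The windows of 5 are printed to show that genes with the same core changed to different extents. They are the RefSeq sequence of GRCh38.p14, 5′ to 3′ on the strand of the gene, with the core in capitals (in CHAC1 the core is on the other strand and reads TTGCATCA).
CEBPG, chr19:33374041-33374108, plus strand: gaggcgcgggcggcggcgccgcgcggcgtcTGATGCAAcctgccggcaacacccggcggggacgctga
JDP2, chr14:75427976-75428021, plus strand: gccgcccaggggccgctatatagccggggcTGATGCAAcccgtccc
ASNS, chr7:97872439-97872506, minus strand: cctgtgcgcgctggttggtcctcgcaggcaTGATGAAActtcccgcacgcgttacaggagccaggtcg
CHAC1, chr15:40953232-40953299, plus strand: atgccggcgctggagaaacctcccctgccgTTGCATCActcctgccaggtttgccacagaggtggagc
ATF3, chr1:212565186-212565253, plus strand: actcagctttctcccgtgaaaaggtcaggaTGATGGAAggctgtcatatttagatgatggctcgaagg

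The 5 changes ranged from 1.15 for CEBPG to -0.47 for ATF3. CEBPG, itself a C/EBP factor and a partner of ATF4, was at 52.1, 51.6 and 45.3 TPM with oeMCART1 and 23.3, 22.7 and 19.6 TPM with oeNC (1.15 ± 0.08, adjusted p = 4.64e-07). JDP2, a repressor of the AP-1 family, was at 23.2, 21.4 and 23.8 against 13.5, 14.2 and 17.9 TPM (0.56 ± 0.12, adjusted p = 0.00148). ASNS, asparagine synthetase, was at 672, 647 and 632 against 577, 605 and 555 TPM (0.17 ± 0.04, adjusted p = 0.00248), a rise smaller than the shift of all genes. The last 2 were not called higher. CHAC1, which degrades glutathione, was at 45.6, 47.1 and 54.2 against 27.5, 38.1 and 51.9 TPM; the oeNC libraries were spread, the groups overlapped and the change of 0.36 ± 0.17 was not called (adjusted p = 0.0791). ATF3, a stress-induced repressor, was at 176, 158 and 159 against 309, 228 and 168 TPM (-0.47 ± 0.18, adjusted p = 0.0322). Again oeNC was spread and the groups overlapped, and shScramble, at 181, 149 and 139 TPM, was near oeMCART1, so this fall is uncertain. Of the other 3, SLC1A5 changed by 0.20, MTHFD1L by 0.28 and FGF21 by 0.42, all called. A match of these letters describes the window and nothing else.

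Chaperone genes of the endoplasmic reticulum and cytosol were mostly higher. The median of mitochondrial chaperones and proteases against oeNC lay below that of all genes on both scales (0.27 and -0.00 for all genes). Of 24 targets of the unfolded protein response of the endoplasmic reticulum 19 rose and 0 fell (median 0.60), with 15 and 3 after median-of-ratios scaling (0.28) and 15 and 1 against shScramble (0.26). PDIA3, a disulfide isomerase, was at 279, 264 and 262 TPM with oeMCART1 and 167, 165 and 161 TPM with oeNC (0.70 ± 0.04, adjusted p = 2.95e-07). XBP1 rose by 0.61, the translocon subunit SEC61B by 0.69 and the sensor ATF6 by 1.02. Of 27 cytosolic heat shock genes 19 rose and 4 fell (median 0.50), with 14 and 8 after scaling (0.17) and 13 and 2 against shScramble (0.18). HSPA8, the constitutive HSP70, was at 1062, 1003 and 959 against 457, 496 and 462 TPM (1.09 ± 0.05, adjusted p = 3.13e-08), with shScramble at 619, 644 and 663 TPM. Its cochaperone DNAJA1 rose by 1.53 and HSP90AA1 by 1.58. Of 32 proteasome subunits 26 rose and 0 fell (median 0.35), but 13 rose and 9 fell after scaling (0.02), and 23 rose and 0 fell against shScramble (0.23). Of 20 mitochondrial chaperones and proteases 9 rose and 5 fell (median 0.09), whereas 5 rose and 10 fell after scaling (-0.21).

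Of the 14 SR family genes, which select splice sites, 12 rose and 0 fell (median 1.04); 11 rose and 1 fell both under median-of-ratios scaling (0.72) and with the GC trend removed (0.68), and 8 rose and 0 fell against shScramble (0.37). SRSF6 was at 57.7, 51.5 and 52.0 TPM with oeMCART1 and 15.3, 13.9 and 15.7 TPM with oeNC (1.78 ± 0.09, adjusted p = 1.13e-07), with shScramble at 23.1, 29.8 and 27.9 TPM. SRSF3 was at 179, 182 and 160.4 against 79.0, 83.2 and 79.5 TPM (1.10 ± 0.07, adjusted p = 4.23e-07), SRSF2 rose by 1.05 and SRSF7 by 0.93. SRSF4 (0.02) and SRSF12 (0.28) were the 2 members not called.

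Mitosis genes were mostly higher against oeNC and had few calls against shScramble. Of 41 mitosis genes 30 rose and 3 fell (median 0.53), with 18 and 10 after median-of-ratios scaling (0.21), and 2 rose and 3 fell against shScramble (0.05). KIF11, the motor that separates the spindle poles, was at 9.94, 8.92 and 8.10 against 3.66, 3.03 and 2.55 TPM (1.30 ± 0.12, adjusted p = 3.42e-06); shScramble was at 7.33, 7.33 and 7.53 TPM, and the change against it was not called (0.25, adjusted p = 0.151). NDC80, of the kinetochore, likewise rose by 1.19 and was not called against shScramble (0.15, adjusted p = 0.31), whereas cyclin CCNB2 rose by 0.66 and was called against both. Of 47 DNA replication genes 29 rose and 8 fell (median 0.26), with 13 and 18 after scaling (-0.06) and 6 and 5 against shScramble (0.01).

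The lists with the 4 lowest medians were early response genes, glycolysis, sterol synthesis and the cytosolic ribosome. Of 24 genes of cholesterol synthesis and its sensors 12 fell and 5 rose (median -0.18, 0.45 below all genes). The counts were 17 and 2 under median-of-ratios scaling (-0.49), 12 and 6 with the GC trend removed (-0.10), and 15 and 0 against shScramble (-0.32). Beside INSIG1, MVD, which makes isopentenyl pyrophosphate, was at 19.3, 20.6 and 22.0 TPM with oeMCART1 and 45.3, 40.1 and 45.9 TPM with oeNC (-1.05 ± 0.07, adjusted p = 4.23e-07). DHCR7, the last step to cholesterol, changed by -0.77 and squalene synthase FDFT1 by -0.65.

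Of 23 glycolysis genes 14 fell and 4 rose (median -0.31), with 18 and 1 after median-of-ratios scaling (-0.63), 11 and 7 with the GC trend removed (-0.15), and 10 and 2 against shScramble (-0.15). SLC2A3, the glucose transporter GLUT3, was at 8.38, 6.72 and 6.70 TPM with oeMCART1 and 18.9, 19.5 and 26.8 TPM with oeNC (-1.45 ± 0.12, adjusted p = 2.14e-06). ENO2 changed by -0.71 and the first enzyme HK1 by -0.46, while SLC16A1, the exporter of lactate, rose from 40.0, 41.3 and 35.5 to 86.0, 83.6 and 73.4 TPM (1.04). Of 20 other targets of HIF-1, the factor of low oxygen, 6 rose and 6 fell (median 0.00), with 3 and 9 under median-of-ratios scaling (-0.29), 4 and 9 under quantile normalization (-0.30), and 0 and 5 against shScramble (-0.12). NDRG1 was at 37.0, 36.8 and 33.9 against 92.3, 76.7 and 101 TPM (-1.29 ± 0.09, adjusted p = 5.68e-07), while VEGFA rose by 0.52 and PLOD2 by 0.84, the latter 2 without a call against shScramble (adjusted p = 0.0548 and 0.226).

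Of 26 AP-1 and other immediate early genes 15 fell and 3 rose (median -0.40, the lowest of the 43 lists), with 21 and 2 after median-of-ratios scaling (-0.63), 15 and 5 with the GC trend removed (-0.34), and 7 and 3 against shScramble (-0.20). NR4A1, an orphan nuclear receptor, was at 4.35, 4.40 and 4.31 TPM with oeMCART1 and 13.8, 11.1 and 10.1 TPM with oeNC (-1.24 ± 0.10, adjusted p = 1.86e-06), with shScramble at 9.43, 8.36 and 7.83 TPM. IER3 changed by -1.03 and JUNB by -0.81; BTG2, also a p53 target, rose by 0.96. Of 79 cytosolic ribosomal protein genes 52 fell and 4 rose (median -0.17), with 75 and 1 after median-of-ratios scaling (-0.50), 25 and 17 after quantile normalization (-0.03), and 25 and 5 against shScramble (-0.07). RPL7A was at 4221, 4248 and 4307 against 7668, 7404 and 7452 TPM (-0.82 ± 0.03, adjusted p = 6.25e-09), and RPL13A, RPL3 and RPS3 changed by -0.63, -0.57 and -0.55. These genes have many pseudogenes, so reads may be split between copies.

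Genes of NAD metabolism showed few changes beyond the common shift. Of 13 measured genes of NAD synthesis 2 rose and 2 fell (median 0.05), with 1 and 6 under median-of-ratios scaling (-0.26). QPRT, which makes NAD from quinolinate, was at 30.9, 32.4 and 31.5 TPM with oeMCART1 and 49.4, 45.3 and 51.1 TPM with oeNC (-0.60 ± 0.06, adjusted p = 3.93e-06). NADK2, the mitochondrial NAD kinase, was at 8.53, 8.36 and 7.99 against 5.32, 4.28 and 3.26 TPM (0.83 ± 0.13, adjusted p = 0.000115) and was not called against shScramble (0.15, adjusted p = 0.414). AFMID, of the same pathway as QPRT, changed by -0.45 and lost its call against shScramble (adjusted p = 0.0701). NADSYN1 changed by 0.23 (adjusted p = 0.0385), turned to -0.08 under median-of-ratios scaling, and lost its call without any of 4 of the 6 libraries (adjusted p from 0.0537 to 0.155). NAMPT, which limits the salvage of NAD from nicotinamide, changed by 0.05 (adjusted p = 0.618; chosen after its value was seen).

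Of 19 NAD-consuming enzymes 13 rose and 2 fell (median 0.41), whereas 4 rose and 4 fell under median-of-ratios scaling (0.11) and 2 rose and 0 fell against shScramble (0.03). SIRT1, a nuclear deacetylase, rose by 0.91, the tankyrase TNKS2 by 0.92, PARP4 by 0.81 and SARM1, an NAD-cleaving enzyme of axon degeneration, by 0.43; none of the 4 was called against shScramble, and PARP4 turned to -0.08. Of 42 other SLC25 carriers 21 rose and 9 fell (median 0.24), whereas 7 rose and 18 fell after median-of-ratios scaling (-0.09) and 3 rose and 7 fell against shScramble (-0.02). SLC25A6, an ADP/ATP exchanger, was at 278, 268 and 299 against 499, 479 and 503 TPM (-0.81 ± 0.05, adjusted p = 4.45e-07), and the citrate carrier SLC25A1 changed by -0.70. SLC25A13, an aspartate and glutamate exchanger of the NADH shuttle, was at 38.5, 40.8 and 34.8 against 13.2, 16.9 and 16.5 TPM (1.24 ± 0.10, adjusted p = 1.95e-06). In the tricarboxylic acid cycle and its shuttles 23 of 38 rose and 6 fell (median 0.31), with 10 and 13 after scaling (-0.01) and 8 and 5 against shScramble (0.04); IDH3A, the NAD-dependent isocitrate dehydrogenase subunit, rose by 0.98 while the NADP-dependent mitochondrial IDH2 changed by -0.67.

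Genes linked to Parkinson disease moved in both directions: of 17 measured, 7 rose and 5 fell (median 0.19), with 5 and 8 after median-of-ratios scaling (-0.12). UCHL1 rose by 0.43 and FBXO7 by 0.59, and beta-synuclein SNCB was at 2.78, 2.77 and 3.12 TPM with oeMCART1 and 7.73, 6.96 and 8.07 TPM with oeNC (-1.14 ± 0.10, adjusted p = 2.55e-06). Among antioxidant genes 18 of 36 rose and 5 fell (median 0.14), near the shares of all genes (49.7% and 15.0%). After scaling 7 rose and 17 fell (-0.19), and with the GC trend removed 24 of 35 rose and 3 fell (0.29, and 0.28 for all genes). Of single members, the ferritin chain FTH1 rose by 0.56, thioredoxin TXN by 0.66 and the regulator NFE2L2 by 1.04, the last without a call against shScramble (adjusted p = 0.206).

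Enzymes that charge tRNAs with amino acids are themselves targets of ATF4 in part. Of 20 cytosolic synthetases 14 rose and 4 fell (median 0.42), with 9 and 7 after median-of-ratios scaling (0.10) and 5 and 2 against shScramble (0.12). Of 17 mitochondrial ones 11 rose and 0 fell (0.37), with 6 and 4 after scaling (0.05) and 2 and 1 against shScramble (0.05). IARS1 was at 244, 234 and 209.7 TPM with oeMCART1 and 115, 122 and 103 TPM with oeNC (1.01 ± 0.08, adjusted p = 1.33e-06), yet shScramble, at 187, 213 and 215 TPM, overlapped oeMCART1. LARS1 rose by 0.84, also without a call against shScramble (adjusted p = 0.31). QARS1 went the other way, at 103, 100.2 and 104 against 193, 214 and 184 TPM (-0.94 ± 0.05, adjusted p = 1.93e-07), with shScramble at 158, 153 and 154 TPM. Of 36 folate, methionine and polyamine genes 23 rose and 5 fell (0.38), with 15 and 11 after scaling (0.05). ODC1, the first enzyme of polyamine synthesis, was at 279, 272 and 273 against 133, 138 and 143 TPM (0.99 ± 0.05, adjusted p = 9.52e-08), thymidylate synthase TYMS rose by 0.90 and the folate hydrolase GGH by 1.09.

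Neuronal lists were measured only in part. Of 30 synaptic and dense-core vesicle genes 16 were tested, of which 7 rose and 4 fell (median 0.13; -0.13 after median-of-ratios scaling). The granins CHGA and CHGB, cargo of dense-core vesicles, were at 4.41, 4.73 and 4.45 against 1.39, 1.76 and 2.18 TPM and at 2.57, 2.32 and 2.95 against 0.740, 0.720 and 0.860 TPM (1.00 and 1.02; both chosen after their values were seen). Of 24 axon and cytoskeleton genes 7 rose and 6 fell (-0.07; 0.18 with the GC trend removed), of 10 catecholamine genes 4 rose and 2 fell (0.07; -0.21 after scaling), and of 12 adrenergic transcription factor genes 1 rose and 4 fell (-0.03; -0.27 after scaling). Of 27 matrix and mesenchymal genes 7 rose and 8 fell (0.07; -0.24 after scaling), among them COL6A2, at 11.2, 10.3 and 11.7 against 20.4, 19.2 and 22.8 TPM (-0.85 ± 0.08, adjusted p = 3.24e-06). The remaining 7 lists had medians between -0.09 for the pentose phosphate pathway and 0.55 for the eIF2 kinases and the mitochondrial stress relay, where 12 of 17 members rose and 0 fell; after scaling these medians were -0.41 and 0.22.

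**Figure D4:**
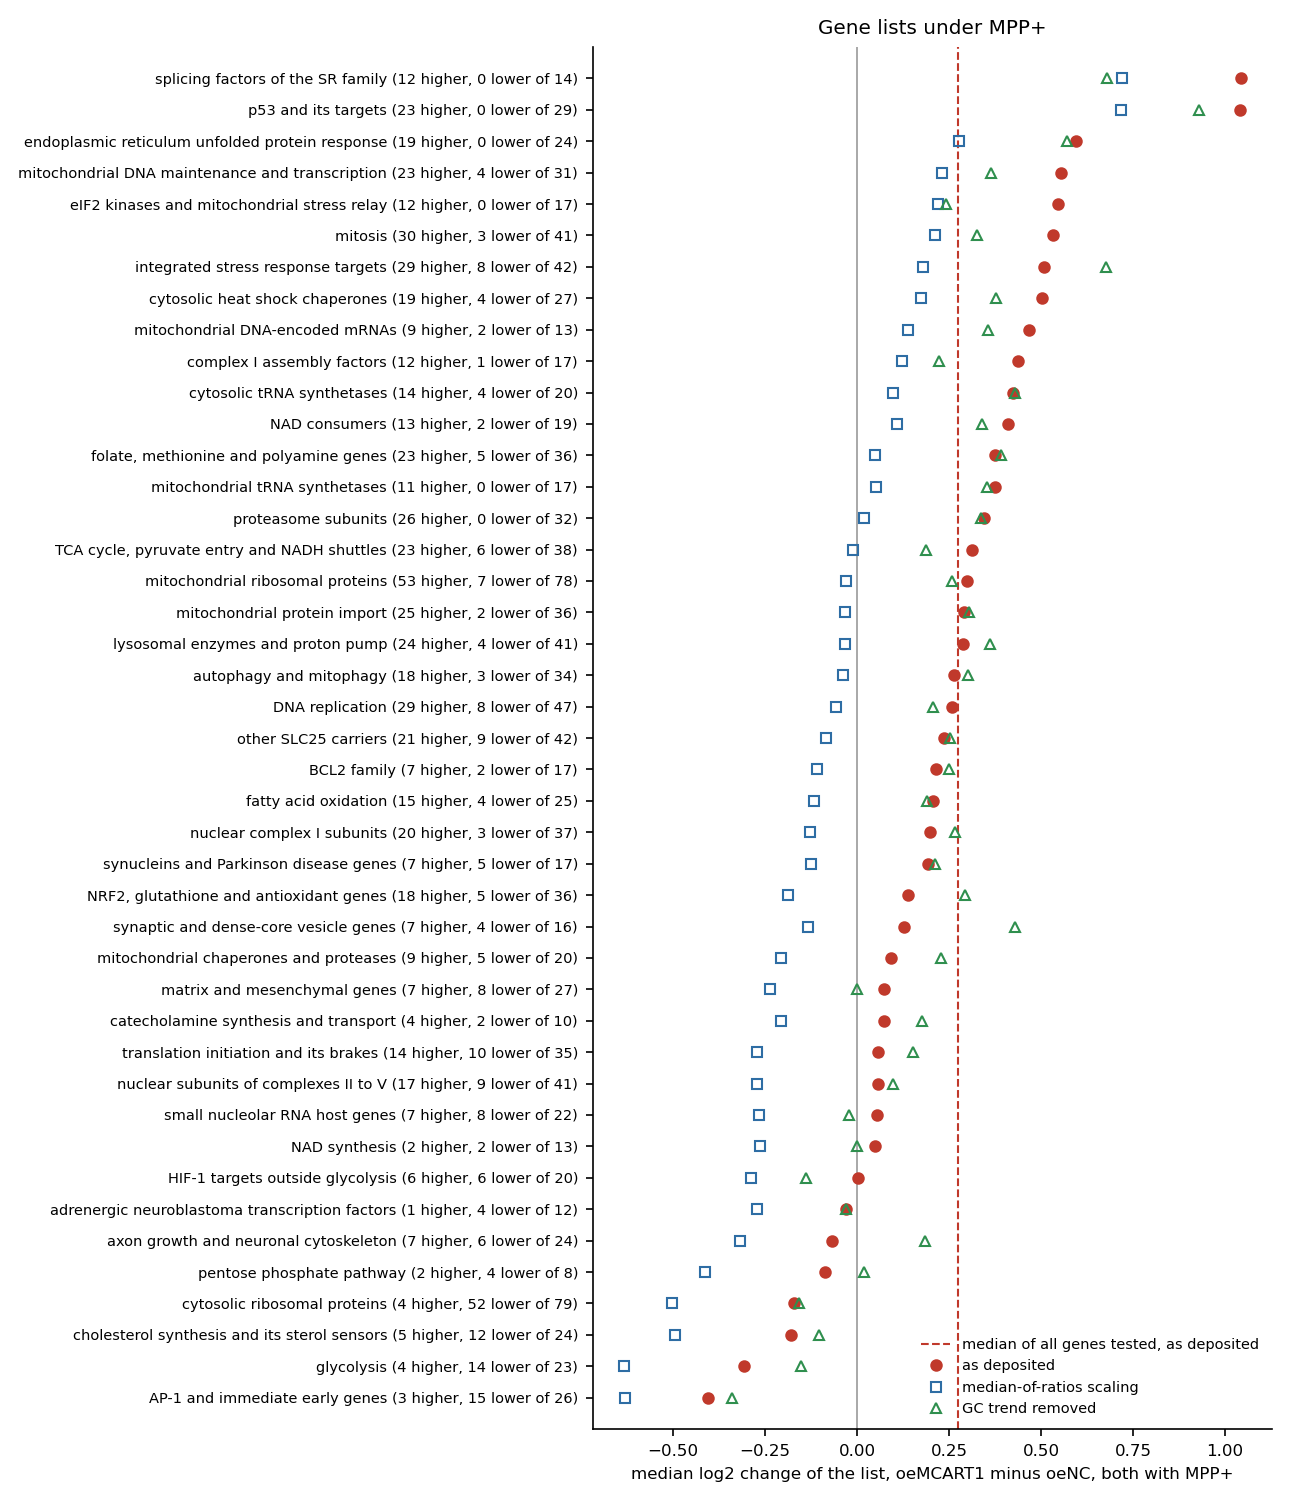
Median log2 change of each of the 43 gene lists between oeMCART1 and oeNC with MPP+ (x axis), as deposited (red circles), after median-of-ratios scaling (blue squares) and with the GC trend removed (green triangles); counts in the labels are as deposited. The dashed line is the median of all genes, 0.27, and lists near 0 to 0.3 have circles and squares on opposite sides of 0, while the p53 and SR lists stay above 0 and glycolysis, sterol, ribosome and early response lists stay below 0 with each of the 3 markers.

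In its own table without MPP+, the same overexpression was called for 7129 of 13944 genes (51.1%), 35.6% of all tested higher and 15.5% lower. It had 4217 calls when oeNC replicate 1 was left out and 3815 with the GC trend removed, 26.0% of genes higher and 2.37% lower; GC content and log2 change had a Spearman correlation of -0.81 across genes. The p53 list had 19 genes higher and 1 lower of 28 without MPP+ (median 0.50), 21 and 0 with the GC trend removed, and the effect with MPP+ was higher for 11 of 29 and lower for 0 in the test of the difference. The SR list had 8 higher and 0 lower without MPP+ (0.47), but 0 higher and 4 lower with the GC trend removed (0.06), with a difference called higher for 8 of 14. The integrated stress response list was at a median of 0.04 without MPP+, and the difference was called higher for 15 and lower for 2 of 42. The sterol list had 9 higher and 9 lower without MPP+ (-0.09), 7 and 0 with the GC trend removed (0.16), and the difference was lower for 10 and higher for 1 of 24. With the GC trend removed the difference was called higher for 15.7% and lower for 8.30% of all genes, and for 17 and 1 of the p53 list, 10 and 0 of the SR list, 18 and 2 of the stress response list and 1 and 13 of the sterol list. INSIG1 changed by 0.25 without MPP+ and by -2.50 with it, a difference of -2.75 ± 0.18 (adjusted p = 1.50e-08). For heat shock genes (median 0.56 without MPP+) and mitosis genes (0.51) the difference was called for 4 of 27 and 6 of 41, near the share of all genes (20.5%). Each effect is taken within its own table, and how the tables were made was not tested as a source of these differences.

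The knockdown under MPP+, shMCART1 against shScramble, shares no library with the overexpression comparison. SLC25A51 was at 5.12, 5.82 and 5.06 TPM in shMCART1 and 6.87, 8.38 and 8.47 TPM in shScramble (log2 change -0.49, adjusted p = 0.00208), and 4949 genes were called (35.6%), 1603 higher (11.5%) and 3346 lower (24.1%). Of the 6899 genes higher with overexpression, 2997 were lower with knockdown (43.4%, or 89.6% of the genes lower with knockdown) and 128 were higher. Of the 2078 genes lower with overexpression, 959 were higher with knockdown (46.2%, or 59.8% of the genes higher with knockdown) and 45 were lower. With the GC trend removed from both, the opposite-direction counts were 2735 of 6941 (39.4%) and 461 of 1194 (38.6%), and the same-direction counts 153 and 35. At that setting 23.9% of all genes were lower and 7.82% higher with knockdown. The GC correlation of the 2 comparisons had opposite signs, -0.61 and 0.48.

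By list, the knockdown lowered 30 and raised 3 of the 42 integrated stress response targets (median -0.53), lowered 15 and raised 3 of the 29 p53 genes (-0.32), and lowered 9 and raised 1 of the 14 SR genes (-0.58), against a median of -0.08 for all genes. It raised 18 and lowered 1 of the 26 early response genes (0.53) and raised 10 and lowered 2 of the 24 sterol genes (0.11). INSIG1 was at 70.7, 63.2 and 60.2 TPM in shMCART1 and 29.8, 27.8 and 26.3 TPM in shScramble (log2 change 1.18, adjusted p = 0.000186), and MTHFS at 7.50, 10.3 and 9.04 against 25.6, 29.5 and 28.6 TPM (-1.55, adjusted p = 1.35e-05). The mitochondrial mRNAs did not follow this pattern, since knockdown raised 10 and lowered 0 of 13 (median 0.59), the direction that overexpression also showed for 9. Their share of TPM was 0.418% in shMCART1 and 0.421% in the control oeNC, against 0.285% in shScramble. The other control thus stood above shScramble as shMCART1 did, and what sets the controls apart was not tested.

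**Figure D5:**
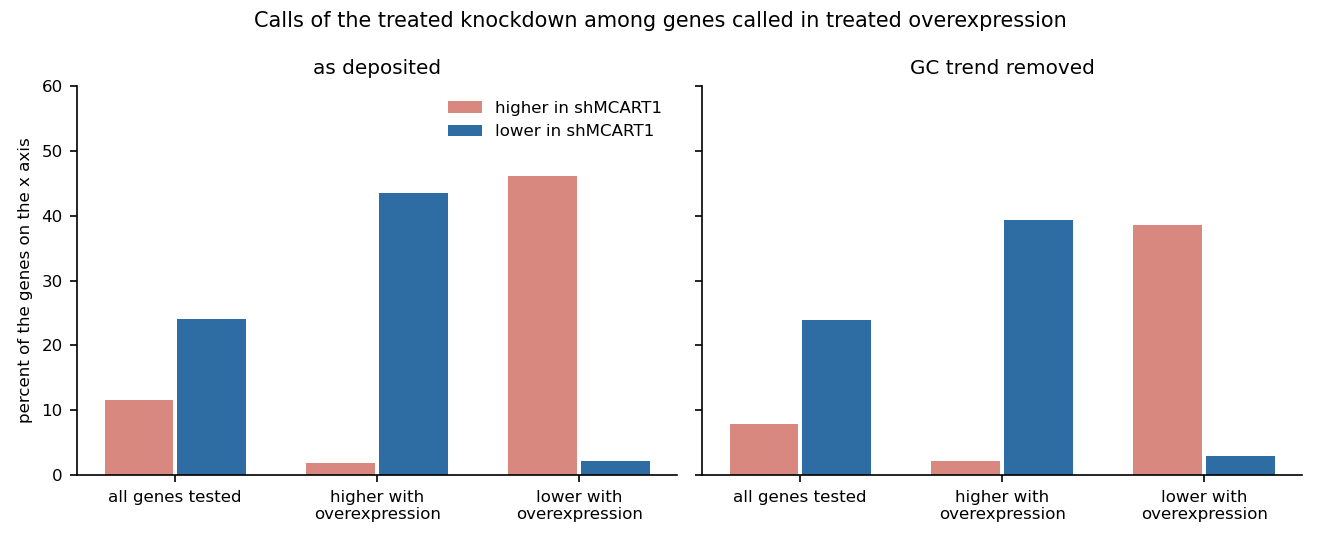
Percent of genes (y axis) called higher or lower in shMCART1 against shScramble with MPP+, among all genes tested and among genes called higher or lower with oeMCART1 against oeNC with MPP+ (x axis), as deposited and with the GC trend removed. Among genes higher with overexpression 43.4% are lower with knockdown, against 24.1% of all genes, and among genes lower with overexpression 46.2% are higher with knockdown, against 11.5%.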

How the data were processed

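Polyadenylated RNA was sequenced as strand-specific libraries, per the labels' protocols. The authors deposited TPM values in 2 tables, one of them holding the MPP+-treated libraries. Aligner, annotation and strand setting: not given in the sources used here. The submitters' processing notes name GRCm38, mm10 and GRCh38 and assign none of them a role. Because TPM carry no read totals, depth is unknown and counting intervals are not printed. The treated table held 36783 entries, of which 42 without an identifier were left out.

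The 13885 genes with 3 or more of the 6 libraries at or above 1 TPM were tested on log2(TPM + 1), which understates the change of low genes. The test was limma 3.58.1 in R 4.3.3 (trended empirical Bayes, all 12 treated libraries in the fit), with Benjamini-Hochberg adjustment over all genes and calls under 0.05. It was also run on simulated data with independent noise and no common shift or GC trend, so that run does not cover these features. The untreated table (63266 entries, 25 left out) was fitted alike, and the difference of effects was fitted over both tables, each effect being taken within its table. Alternatives were another pseudocount, filters, median-of-ratios scaling, quantile normalization, removal of a GC trend (natural spline with 5 degrees of freedom, GENCODE 29 transcripts, a GC value for 94.5% of genes), a replicate block, and leaving out each library.

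Named genes were SLC25A51, the 12 called genes with the largest change in each direction at a mean of 5 TPM or more in the higher group and without overlap between the groups (official symbols, no small RNAs or replication-dependent histone genes), up to 4 called members with the smallest p of each of 43 gene lists, and the 13 mitochondrial mRNAs. Values of a few single genes are not reported here, although list counts hold them. Members and lists were chosen with earlier results of these data known. Promoter sequences are RefSeq's.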

Additional observations from a re-analysis of the deposited data

Results flagged for a closer look

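Of 122 named genes reported here, called or not, 73 had an effect of overexpression that differed between MPP+-treated and untreated libraries in a test of the difference itself (limma over both tables, adjusted p under 0.05), where 20.5% of all genes did. Most named genes were chosen for their change or p in the treated comparison, whose values enter this difference, so the 2 shares are not comparable. The treated effect was the higher one for 43 and the lower one for 30. Values in parentheses are the treated minus the untreated log2 change, and how the separately made tables contribute was not tested.

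All 13 mitochondrial mRNAs had a higher treated effect: MT-ATP8 (2.55), MT-ATP6 (2.50), MT-ND4L (1.71), MT-ND4 (1.61), MT-CO2 (1.47), MT-CO3 (1.36), MT-CYB (1.33), MT-ND5 (1.24), MT-CO1 (1.21), MT-ND3 (0.96), MT-ND6 (0.89), MT-ND1 (0.89) and MT-ND2 (0.79).

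Among nuclear genes with a higher treated effect, the difference was above 1 for SLC25A51 (2.23), INPP5D (1.65), SRSF6 (1.45), MTHFS (1.41), EXOG (1.31), DLEU2 (1.13), SRSF2 (1.07) and ACTA2 (1.05). It was between these and the next group for FAM13B (0.85), TNFRSF10B (0.80), WARS1 (0.79), NDUFB2 (0.77), SLC25A13 (0.72), NDUFAF8 (0.71), SARM1 (0.70), BTG2 (0.67), NDUFC1 (0.66) and NDUFC2 (0.66), which take in a death receptor, a tRNA synthetase and complex I genes. Smaller differences were found for ODC1 (0.64), TYMS (0.63), SRSF3 (0.61), SLC7A11 (0.60), XBP1 (0.58), FTH1 (0.57), NADSYN1 (0.49), SRSF7 (0.48), UCHL1 (0.46), SEC61B (0.45), FBXO7 (0.35) and AEN (0.30). For SLC25A51 the control level also differed: oeNC stood at 8.49 TPM with MPP+ and 31.6 TPM without, and oeMCART1 at 936 and 683 TPM.

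The treated effect was the lower one, by more than 1, for INSIG1 (-2.75), LBH (-1.88), SLC2A3 (-1.64), ANKRD37 (-1.62), COL1A1 (-1.54), CRABP2 (-1.37), HBQ1 (-1.28), TSC22D3 (-1.24), PLPPR3 (-1.15), FSCN1 (-1.14) and DDIT4 (-1.02), with the sterol sensor INSIG1 and the glucose transporter SLC2A3 among them. It was lower to a lesser extent for NDRG1 (-0.90), RPL3 (-0.82), SNCB (-0.78), IER3 (-0.72), RPL7A (-0.65), FDFT1 (-0.63), NR4A1 (-0.60) and IDH2 (-0.59). The least of these differences were those of QARS1 (-0.57), MVD (-0.57), JUNB (-0.56), AFMID (-0.54), RPL13A (-0.53), DHCR7 (-0.43), COL6A1 (-0.42), SLC25A6 (-0.39), RPS3 (-0.37), HK1 (-0.30) and SLC25A3 (-0.21).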

How the results depend on the processing

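TPM carry no depth, so what depth limits could not be measured. The median log2 change of 0.27 under the deposited scale decides the split of calls. Genes higher fell from 6899 to 3980 under median-of-ratios scaling and 4176 under quantile normalization, while genes lower rose from 2078 to 4247 and 3865, and removing the GC trend left 1194 lower. With shScramble as the control 3612 genes were called, 1777 of them higher; why the controls differ was not tested. The untreated comparison kept 3815 of 7129 calls in number with the GC trend removed; leaving out 1 library gave 4217 to 7736 calls there, the lowest without oeNC replicate 1, and 8174 to 8678 in the treated comparison. Signs turned for RPS27P6 (-0.25), PARP4 (-0.083), MT-ND1 (0.56) and MT-ND2 (0.18) against shScramble, for MT-ND6 (-0.14 under median-of-ratios scaling, -0.11 without the GC trend), for NADSYN1 (-0.080 and -0.070 under the 2 scalings), and for MT-ND3 (-0.32 and -0.13 under the 2 scalings, -0.38 without the GC trend, and -0.056 without oeMCART1 replicate 3 and -0.054 without oeNC replicate 1, in a range up to 0.082). The cause was not tested. With the group mean of each gene taken off, oeMCART1 and oeNC libraries of the same number correlated at 0.102, 0.0146 and 0.151. Those of different numbers correlated at -0.127 to 0.0344. Whether the numbers pair the libraries was not tested. A replicate block gave 8913 calls (6854 higher, 2059 lower) and ended the calls of RPS27P6 and NADSYN1 among the named genes.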
